A study of Mus musculus with 45 samples.

Results

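The 9 genes that mark extraembryonic endoderm, Gata4, Gata6, Sox17, Sox7, Foxa2, Dab2, Pdgfra, Hnf4a and Afp, were followed across mouse embryonic stem cells (ESCs) that carry deletions at the long noncoding RNA (lncRNA) gene 5430416N02Rik. The members were chosen by symbol, and all 9 were found and varied in both expression tables, among 33924 listed genes. RNA-seq was done on 24 samples in 8 groups of 3. The values are regularized log (rlog) values, which are normalised counts on a log2 scale with low counts drawn toward the gene's mean. The 12 ΔPG samples and the 12 ΔG samples were transformed in separate tables, so levels are not compared between ΔPG and ΔG, nor between genes, whose lengths differ.

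The cells were D3 mouse ESCs of strain 129, grown without feeder cells in medium with leukemia inhibitory factor. In ΔPG cells a PGK-puro cassette took the place of the 5430416N02Rik gene body together with its promoter, and in ΔG cells a GFP-IRES-Puro cassette took the place of the gene body alone. Each deletion was present on 1 allele (heterozygous) or on both (homozygous), and each cassette was also carried by the heterozygous cells that served as controls. The ES samples received solvent (DMSO) and the RA samples 2 µM retinoic acid (RA) for 48 h. The groups of each table were thus ES heterozygous, ES homozygous, RA heterozygous and RA homozygous. Independent clones were made of each genotype, the clones behind the RNA-seq samples are not given in the sources used here, and no wild-type RNA-seq sample was analysed here. The part of the clone in a genotype difference was therefore not tested. The 3 samples of a group are biological replicates per the study's methods, which do not say how they were kept separate, and p-values measure the spread between these samples.

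In the mouse blastocyst, the inner cell mass gives rise to the epiblast, from which ESCs derive, and to the primitive endoderm, whose descendants are the visceral and the parietal endoderm of the yolk sac. GATA6 and then GATA4, SOX17 and SOX7 drive the primitive endoderm programme, PDGFRA is a receptor on its surface, DAB2 sorts endocytic cargo in its epithelium, and FOXA2, HNF4A and AFP belong to later, mainly visceral, stages. Retinoic acid binds nuclear receptors and takes ESCs out of self-renewal, and endoderm-like cells are one known outcome of such cultures. In bulk RNA, fewer cells of a type and less RNA per cell cannot be told apart, and this holds for every difference below.

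The deleted gene was lower in the homozygous samples of both tables, as the labels imply. In ΔPG, 5430416N02Rik (chr5:100849861-100858535, minus strand, NCBIM37) was at 4.60 ± 0.02 (rlog, SD, n = 3) in ES heterozygous and 2.30 ± 0.14 in ES homozygous samples, and at 4.16 ± 0.33 and 2.35 ± 0.28 in the RA groups. In ΔG the corresponding levels were 5.54 ± 0.04, 2.75 ± 0.11, 5.58 ± 0.06 and 2.83 ± 0.23. No 2 libraries held identical values. The 3 ΔPG ES heterozygous libraries stood apart from the others in a trend with GC content. Their deviation from the gene mean correlated with exonic GC content at r = 0.333 to 0.339 over 11904 genes, against -0.29 to -0.24 in ΔPG ES homozygous and -0.085 to -0.024 in ΔPG RA libraries. In ΔG the range over all 12 libraries was -0.135 to 0.165. The exonic GC content of the 9 members ran from 43.8% (Dab2) to 57.3% (Gata4). The ΔPG ES homozygous libraries thus also lay apart from the ΔPG RA libraries, on the other side. Differences of the members that rest on ΔPG ES libraries are therefore also given with this trend removed.

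The promoters of the members were read where RefSeq entries (GRCm38.p6, windows of 300 bases that end shortly after a start) were given, which was the case for Foxa2, Hnf4a, Pdgfra, Afp and Dab2, with 9 starts in all. Gata4, Gata6, Sox17 and Sox7 had no entry. The windows were searched on both strands for the GATA letters AGATAA and TGATAA, the SOX letters AACAAT, the FOXA letters TGTTTAC, and AGGTCA repeated after a gap of 1, 2 or 5 bases, as retinoid and related receptors bind. Windows with GATA letters are shown because GATA4 and GATA6 are members and because Dab2 is among the genes that differed between genotypes below. Capitals mark the match, and TTATCT is AGATAA on the other strand.
Promoter window of Dab2 on the plus strand at chr15:6299539-6299838: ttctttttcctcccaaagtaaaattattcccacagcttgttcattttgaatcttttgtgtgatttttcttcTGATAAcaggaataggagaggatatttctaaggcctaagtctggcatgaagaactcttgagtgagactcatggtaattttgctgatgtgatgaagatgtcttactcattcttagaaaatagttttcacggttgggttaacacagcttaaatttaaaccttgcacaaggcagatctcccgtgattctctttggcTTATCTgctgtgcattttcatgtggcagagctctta
Promoter window of Foxa2 on the minus strand at chr2:148045415-148045714: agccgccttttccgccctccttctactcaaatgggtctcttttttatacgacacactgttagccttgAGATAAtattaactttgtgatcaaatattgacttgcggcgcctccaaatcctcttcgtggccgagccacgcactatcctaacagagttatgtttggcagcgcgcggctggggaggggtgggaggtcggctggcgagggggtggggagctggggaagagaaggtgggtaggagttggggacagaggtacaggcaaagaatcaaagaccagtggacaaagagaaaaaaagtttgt
Promoter window of Hnf4a on the plus strand at chr2:163506607-163506906: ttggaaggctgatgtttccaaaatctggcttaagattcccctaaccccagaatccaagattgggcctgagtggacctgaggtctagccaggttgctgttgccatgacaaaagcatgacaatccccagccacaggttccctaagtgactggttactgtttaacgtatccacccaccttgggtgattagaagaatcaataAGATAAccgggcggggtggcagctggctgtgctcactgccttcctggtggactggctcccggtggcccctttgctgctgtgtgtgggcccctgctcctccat
The upstream start of Dab2 held both GATA words, which do not overlap in this window, and 1 start each of Foxa2 and Hnf4a held AGATAA. Of all 32851 promoters, 11.2% held AGATAA and 9.05% held TGATAA. The SOX letters (10.7% of all promoters), the FOXA letters (3.65%) and the repeats (0.0396%, 0.00913% and 0.00913%) were found in none of the 9 windows. A match of letters is a description and does not show a bound site.

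Retinoic acid was compared with the ES state in each of the 4 lines, which asks how far these genes take part in the differentiation. Of the 9 members, 8 rose in every line, and Hnf4a was the exception. To count as called, a gene needed p under 0.1 in limma after Benjamini-Hochberg adjustment over the whole table, and a log2 difference larger than 0.5 in size. At these limits the share of all tested genes called higher was 18% in ΔPG heterozygous, 16.5% in ΔPG homozygous, 17.7% in ΔG heterozygous and 17% in ΔG homozygous cells. Many tested genes were near the floor, whereas 8 of the 9 members had a mean rlog of at least 3. Of the 11904 such genes in ΔPG, 3181 were called higher in heterozygous and 2814 in homozygous cells. Of the 11997 in ΔG, the counts were 3059 and 3091. The median log2 difference of the 9 members was 2.46 in ΔPG heterozygous and 2.23 in ΔPG homozygous cells, while that of all tested genes was 0.01 in both. For these 8 genes every RA sample lay above every ES sample of its line. The share of all tested genes whose RA and ES samples did not overlap was 56.1%, 52.7%, 54.5% and 52.6% in the same order of lines.

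**Figure D1:**
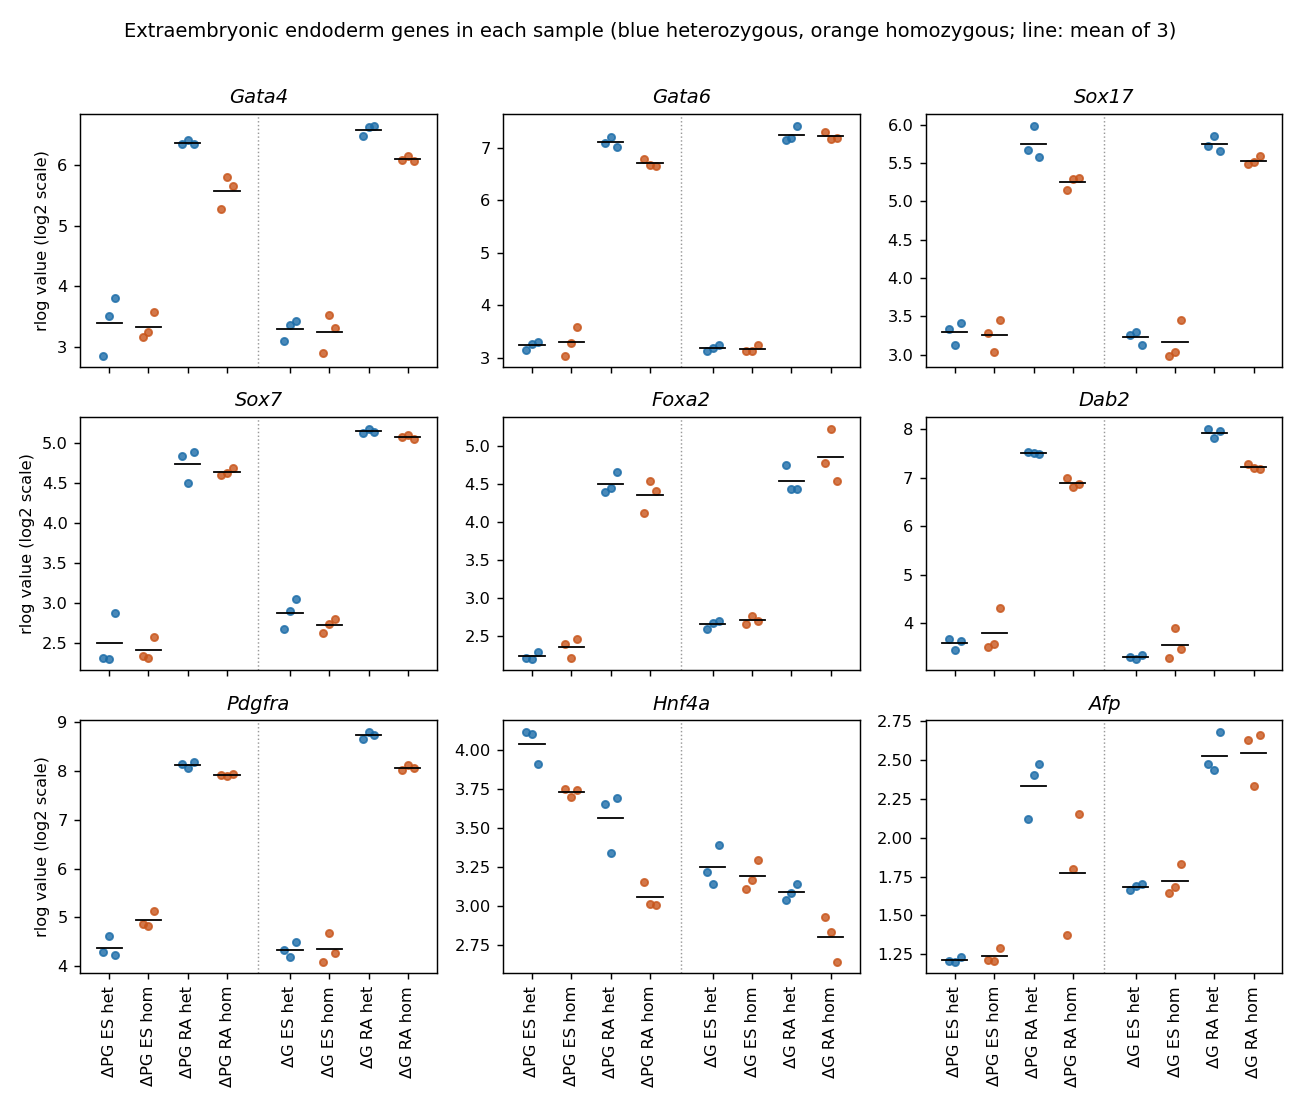
Rlog values (log2 scale) of the 9 genes in each of the 24 samples, by group, with ΔPG left and ΔG right of the dotted line; points are samples, blue heterozygous and orange homozygous, and black lines are means of 3. Each of the genes except Hnf4a is higher in all RA than in all ES samples of its table, and each panel has its own axis, which does not start at 0.

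Among the zinc finger factors, Gata6 (chr18:11052508-11085633, plus strand, NCBIM37) gave the largest and Gata4 (chr14:63817759-63890529, minus strand) a smaller RA difference. Gata6 rlog values in ΔPG were 3.15, 3.27 and 3.30 in ES heterozygous, 3.05, 3.28 and 3.59 in ES homozygous, 7.08, 7.21 and 7.02 in RA heterozygous and 6.79, 6.67 and 6.66 in RA homozygous samples. In ΔG they were 3.13, 3.19 and 3.25, then 3.13, 3.14 and 3.26, then 7.14, 7.19 and 7.42, and 7.30, 7.17 and 7.18 in the same order of groups. The ES groups overlapped in both tables, and all RA samples lay more than 3 units above them. The log2 difference (RA minus ES) of Gata6 was 3.86 ± 0.08 (SE) in ΔPG heterozygous, 3.40 ± 0.14 in ΔPG homozygous, 4.06 ± 0.11 in ΔG heterozygous and 4.04 ± 0.11 in ΔG homozygous cells, with an adjusted p of at most 3.5e-08 (limma).

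Gata4, which follows Gata6 in primitive endoderm, had rlog values in ΔPG of 2.86, 3.51 and 3.80 in ES heterozygous, 3.17, 3.24 and 3.57 in ES homozygous, 6.34, 6.41 and 6.35 in RA heterozygous and 5.27, 5.80 and 5.65 in RA homozygous samples. In ΔG the values were 3.10, 3.37 and 3.43, then 2.90, 3.52 and 3.32, then 6.48, 6.62 and 6.65, and 6.09, 6.15 and 6.07. The RA heterozygous samples were the highest in both tables, the RA homozygous samples came next without overlap, and the ES groups overlapped each other. The RA difference of Gata4 was 2.98 ± 0.22 in ΔPG heterozygous, 2.25 ± 0.17 in ΔPG homozygous, 3.28 ± 0.12 in ΔG heterozygous and 2.85 ± 0.15 in ΔG homozygous cells (adjusted p of at most 1.6e-05, limma). With the GC trend removed it was 3.24 in ΔPG heterozygous and 2.11 in ΔPG homozygous cells.

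Sox17 (chr1:4481009-4486494, minus strand) and Sox7 (chr14:64562511-64569569, plus strand) encode related SOX factors of the same lineage. Sox17 in ΔPG was at 3.33, 3.13 and 3.41 in ES heterozygous, 3.28, 3.03 and 3.45 in ES homozygous, 5.67, 5.99 and 5.58 in RA heterozygous and 5.14, 5.29 and 5.30 in RA homozygous samples. In ΔG it was at 3.25, 3.30 and 3.12, then 2.99, 3.04 and 3.46, then 5.72, 5.84 and 5.66, and 5.48, 5.51 and 5.59. The order of the groups was the same as for Gata4. Sox17 rose by 2.46 ± 0.14, 1.99 ± 0.15, 2.52 ± 0.11 and 2.37 ± 0.14 on the log2 scale in ΔPG heterozygous, ΔPG homozygous, ΔG heterozygous and ΔG homozygous cells. For Sox7, ES samples ranged from 2.31 to 2.88 in ΔPG and from 2.63 to 3.06 in ΔG, and RA samples from 4.51 to 4.89 and from 5.06 to 5.18. Its log2 differences of 2.24, 2.23, 2.27 and 2.35 in the same order of lines, with SEs of 0.13 to 0.19, had overlapping 95% intervals. The adjusted p of both genes was at most 3.8e-05 in each line (limma).

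Foxa2 (chr2:147868613-147872705, minus strand), a forkhead factor of endoderm in and outside the embryo, ranged from 2.20 to 2.45 in ΔPG ES and from 2.59 to 2.76 in ΔG ES samples. After RA it ranged from 4.11 to 4.66 in ΔPG and from 4.43 to 5.23 in ΔG. The log2 differences were 2.27 ± 0.12, 2.00 ± 0.17, 1.89 ± 0.13 and 2.15 ± 0.16 in ΔPG heterozygous, ΔPG homozygous, ΔG heterozygous and ΔG homozygous cells (adjusted p of at most 2.7e-06, limma).

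The nuclear receptor gene Hnf4a (chr2:163332544-163398646, plus strand), which is active in visceral endoderm and liver, did not rise in any line. Its rlog values in ΔPG were 4.12, 4.10 and 3.91 in ES heterozygous, 3.75, 3.70 and 3.75 in ES homozygous, 3.65, 3.34 and 3.70 in RA heterozygous and 3.16, 3.02 and 3.00 in RA homozygous samples. In ΔG they were 3.22, 3.14 and 3.39, then 3.11, 3.16 and 3.30, then 3.04, 3.09 and 3.14, and 2.93, 2.83 and 2.64. In ΔPG the 4 groups formed a descending series in this order with no overlap between neighbours, and in ΔG the RA homozygous samples were the lowest, while ES homozygous samples overlapped both ES heterozygous and RA heterozygous ones. Hnf4a fell by 0.68 on the log2 scale in ΔPG homozygous cells (SE 0.15, adjusted p = 0.0025, limma), where 11.3% of all tested genes were called lower. Of the 11904 genes with a mean rlog of at least 3, 2254 were called lower there. The log2 differences of -0.48 (adjusted p = 0.0199) in ΔPG heterozygous, -0.16 (0.329) in ΔG heterozygous and -0.39 (0.0282) in ΔG homozygous cells did not pass the limits. After quantile normalization they were -0.87, -0.52 and -0.74 and passed. With the GC trend removed, the ΔPG heterozygous value was -0.28 and the ΔPG homozygous value -0.74.

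Dab2 (chr15:6249788-6390712, plus strand, counted together with a shorter overlapping gene model of the same symbol) and Pdgfra (chr5:75548316-75594229, plus strand) showed the other large RA differences. Dab2 in ΔPG was at 3.67, 3.46 and 3.64 in ES heterozygous, 3.51, 3.58 and 4.32 in ES homozygous, 7.52, 7.50 and 7.48 in RA heterozygous and 7.00, 6.81 and 6.87 in RA homozygous samples. In ΔG it was at 3.31, 3.27 and 3.35, then 3.29, 3.90 and 3.47, then 8.00, 7.81 and 7.96, and 7.29, 7.20 and 7.17. In ΔPG a single ES homozygous sample (4.32) lay above the other ES samples. In ΔG the ES homozygous samples at 3.90 and 3.47 lay above every ES heterozygous sample. The RA heterozygous samples were the highest in both tables. Its RA difference was 3.91 ± 0.08, 3.09 ± 0.19, 4.62 ± 0.10 and 3.67 ± 0.14 in ΔPG heterozygous, ΔPG homozygous, ΔG heterozygous and ΔG homozygous cells.

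For Pdgfra the ΔPG values were 4.29, 4.62 and 4.23 in ES heterozygous, 4.88, 4.82 and 5.14 in ES homozygous, 8.14, 8.06 and 8.19 in RA heterozygous and 7.91, 7.90 and 7.94 in RA homozygous samples. The ΔG values were 4.34, 4.19 and 4.49, then 4.09, 4.68 and 4.28, then 8.65, 8.80 and 8.74, and 8.03, 8.12 and 8.06. In ΔPG the order of the genotypes was turned between the states, with homozygous samples higher in ES and lower in RA. The RA difference of Pdgfra was 3.75 ± 0.11, 2.97 ± 0.09, 4.39 ± 0.09 and 3.72 ± 0.12 in the same order of lines, and the adjusted p of Dab2 and Pdgfra was at most 1.2e-07 (limma). Afp (chr5:90919740-90937933, plus strand), the fetal serum protein of visceral endoderm and liver, was at 1.20 to 1.29 in ΔPG ES and 1.64 to 1.83 in ΔG ES samples. It ranged from 2.12 to 2.47 in ΔPG RA heterozygous, from 1.37 to 2.15 in ΔPG RA homozygous and from 2.33 to 2.68 in ΔG RA samples. Its log2 differences were 1.12 ± 0.13, 0.54 ± 0.19, 0.84 ± 0.13 and 0.82 ± 0.14. The ΔPG homozygous value of Afp (adjusted p = 0.0335, limma) was 0.35 and no longer passed without replicate 3 of the RA homozygous samples, with an adjusted p of 0.127, or after quantile normalization, with 0.197. With the GC trend removed, the RA difference in ΔPG heterozygous cells was 4.11 for Gata6, 2.50 for Sox17, 2.33 for Sox7, 2.52 for Foxa2, 3.66 for Dab2 and 3.69 for Pdgfra, all called. In ΔPG homozygous cells it was 3.29 for Gata6, 1.97 for Sox17, 2.20 for Sox7, 1.89 for Foxa2, 3.14 for Dab2 and 2.99 for Pdgfra, all called. Afp was too low for this correction.

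**Figure D2:**
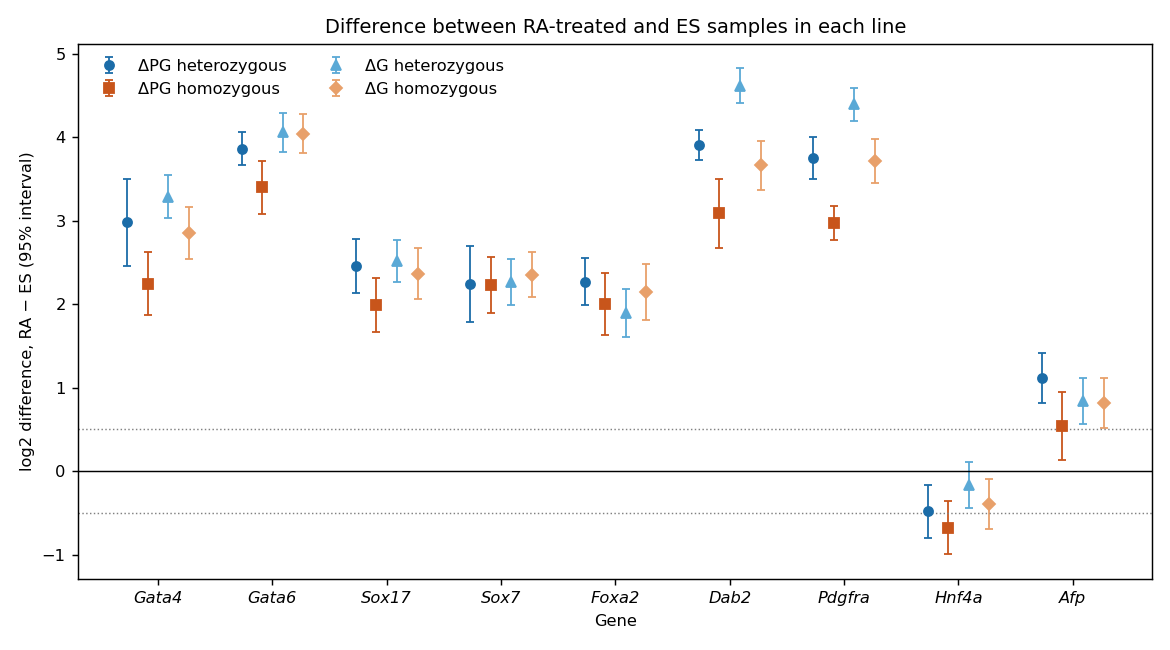
Log2 difference (RA minus ES, y axis) of each gene in the 4 lines, with 95% intervals from limma (n = 3 per group); dotted lines mark 0.5 and -0.5. Dab2 is at 4.62 in ΔG heterozygous and 3.09 in ΔPG homozygous cells, and Hnf4a is below 0 in every line.

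The other genes of the lineage moved in part with the members. Of 25 further genes of primitive and visceral endoderm, 23 varied in ΔPG and 24 in ΔG, and 11, 10, 14 and 11 rose in ΔPG heterozygous, ΔPG homozygous, ΔG heterozygous and ΔG homozygous cells. Cubn, the endocytic receptor cubilin, rose by 4.96, 3.92, 6.15 and 4.97 on the log2 scale in these lines, and Lrp2 (megalin), its partner receptor, by 3.12, 2.95, 3.72 and 4.23. Ttr, the thyroid hormone carrier transthyretin, rose by 3.09, 2.07, 2.39 and 2.76. In all, 2 genes of the list fell in each line, the apolipoprotein genes Apoe and Apom, which are named because the count is small and after their values were seen. The log2 difference of Apoe was -2.89, -2.14, -2.04 and -2.39. Of 13 parietal endoderm genes, 8, 7, 8 and 8 rose and 1, 3, 3 and 2 fell. Plat, tissue plasminogen activator, rose by 4.18, 3.91, 4.85 and 4.72, and Stra6, a membrane transporter of retinol, by 3.71, 3.86, 4.42 and 4.61. The share of all tested genes called lower was 13.6% in ΔPG heterozygous, 11.3% in ΔPG homozygous, 11.7% in ΔG heterozygous and 12.1% in ΔG homozygous cells, and these counts are descriptions.

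Markers of other cell types were measured in the same samples. All 7 pluripotency genes that were measured fell in every line (Esrrb by 4.63, 4.27, 4.88 and 4.70), and the summed level of this list was 13.2 to 13.5 in ES and 9.40 to 9.64 in RA samples (log2 of summed values). Such a sum follows the highest genes of its list, and a range given without a table covers the samples of both, which are not compared. Of 10 RA response genes, 9 rose and 1, Cdx1, fell in each line; Cyp26a1, the enzyme that degrades retinoic acid, rose by 4.60, 4.57, 5.88 and 5.54. Of 7 fibroblast and smooth muscle genes, 6, 6, 6 and 5 rose and 1, 1, 0 and 0 fell, with Acta2 at 5.13, 3.95, 4.52 and 4.51, and the summed level of this list was 5.55 to 6.24 in ES and 9.29 to 10.2 in RA samples. Among 8 genes of definitive endoderm and primitive streak, which could also carry Sox17 and Foxa2, Lhx1 alone rose (2.16, 2.51, 1.71 and 1.68) and 3, 3, 3 and 2 genes fell. T fell in each line (-1.32, -1.53, -0.87 and -0.71), and Trh fell in each line (-3.66, -2.93, -2.89 and -2.86). The summed level of this list was 9.52 to 10.2 in ES and 7.16 to 7.38 in RA samples. Its highest gene in ΔPG ES heterozygous samples was Trh (mean 10.1), with Eomes next (5.04). For primitive and visceral endoderm, where Apoe was highest in ES samples, the sum was 12.09 to 12.15 in ΔPG ES heterozygous and 11.39 to 11.43 in RA heterozygous samples. In ΔPG homozygous samples it was 11.50 to 11.56 and 11.08 to 11.11. In ΔG it was 11.66 to 11.71 and 11.74 to 11.76 in heterozygous, and 11.94 to 11.98 and 11.47 to 11.48 in homozygous samples. Of the neural genes measured (6 in ΔPG and 7 in ΔG), 2 rose in each line, with Pax6 at 2.60, 2.48, 2.86 and 2.31, and 1 fell, Tubb3, at -0.83, -0.60, -1.56 and -0.96. Of 5 trophoblast genes, 2, 2, 2 and 3 rose and none fell, with Krt7 at 2.80, 2.50, 2.27 and 3.04. Of the mesoderm and heart genes (8 in ΔPG and 7 in ΔG), 5, 4, 4 and 4 rose and none fell, with Meox1 at 3.18, 3.30, 4.53 and 4.43. No hepatocyte gene of 5 measured rose, and Ahsg fell (-1.14, -1.01, -1.20 and -0.76). The part of these other cells in the RA differences of the 9 genes was not tested.

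Across the 12 samples of each table, the 8 rising members moved together. Pearson r between pairs of them ran from 0.850 to 0.996 in ΔPG and from 0.929 to 0.998 in ΔG, where the points share the split between ES and RA. The genes most like each member, by the lower r of both tables among 4148 genes with a range of at least 1 rlog unit, were likewise genes with this split. They were Cubn (0.990), Robo2 and Fzd1 for Gata4, and the collagen gene Col3a1 (0.999), Tagln and C1qtnf3 for Gata6. For Sox17 they were Dpysl3 (0.994), Shisa3 and Col3a1, for Sox7 Ets1 (0.995), Clu and Ptpn13, and for Foxa2 Thsd4 (0.987), Mapre2 and H19. For Dab2 they were Tnc (0.996), Cpm and Adamts2, for Pdgfra Cpm (0.996), Lsp1 and Col12a1, and for Afp Rgs5 (0.967), Rgs4 and Pcdh7. Gata6 had 1196 genes with an r over 0.95 in both tables and Gata4 701, whereas Afp had 4. Hnf4a varied too little in ΔG to be included.

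Homozygous and heterozygous cells were then compared after RA, which asks whether loss of both alleles goes with another level of the endoderm genes in differentiating cells. In ΔPG, Gata4, Dab2 and Sox17 were lower in homozygous cells, and in ΔG Dab2 and Pdgfra were, while no member was called higher. Of all tested genes, 0.605% in ΔPG and 1.46% in ΔG were called lower, and 0.846% and 2.14% in either direction. With a mean rlog of at least 3, 131 of 11904 genes in ΔPG and 240 of 11997 in ΔG were called lower. Dab2 was 0.60 lower in ΔPG (SE 0.06, adjusted p = 0.00057, limma; log2 difference -0.60) and its difference in ΔG was -0.70 (SE 0.08, adjusted p = 2.4e-06). Gata4 differed by -0.80 in ΔPG (SE 0.12, adjusted p = 0.0068, limma) and by -0.48 in ΔG (SE 0.09, adjusted p = 0.0020), the latter just inside the size limit and therefore not called. Pdgfra differed by -0.66 in ΔG (SE 0.06, adjusted p = 3.9e-07, limma) and by -0.21 in ΔPG (SE 0.05, adjusted p = 0.0516).

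Sox17 in ΔPG (-0.50, SE 0.12, adjusted p = 0.0569, limma) sat at the size limit. Its call was lost in 11 of 14 alternatives, among them the fits without each of 5 single samples, with differences from -0.54 to -0.38. Its ΔG difference was -0.21 (adjusted p = 0.28). Gata6 differed by -0.40 in ΔPG (SE 0.07, adjusted p = 0.0149, limma), under the size limit, and by -0.03 in ΔG, with a 95% interval of -0.21 to 0.15. Hnf4a (-0.50, adjusted p = 0.147) and Afp (-0.56, adjusted p = 0.241) in ΔPG did not pass by p, and Foxa2 and Sox7 differed by -0.15 and -0.10. In ΔG, Foxa2 was at 0.31 (95% interval -0.02 to 0.64), Hnf4a at -0.29, Sox7 at -0.07 and Afp at 0.01. For 6 of 9 members in each table, every homozygous sample lay on the same side of every heterozygous sample (Gata4, Sox17, Dab2, Pdgfra and Hnf4a in both, with Gata6 in ΔPG and Sox7 in ΔG). Among all tested genes the share without overlap was 18.8% in ΔPG and 21.8% in ΔG. With the GC trend removed, Sox17 in ΔPG was at -0.49 and no longer passed, and Gata4 in ΔG was at -0.504 and passed.

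**Figure D3:**
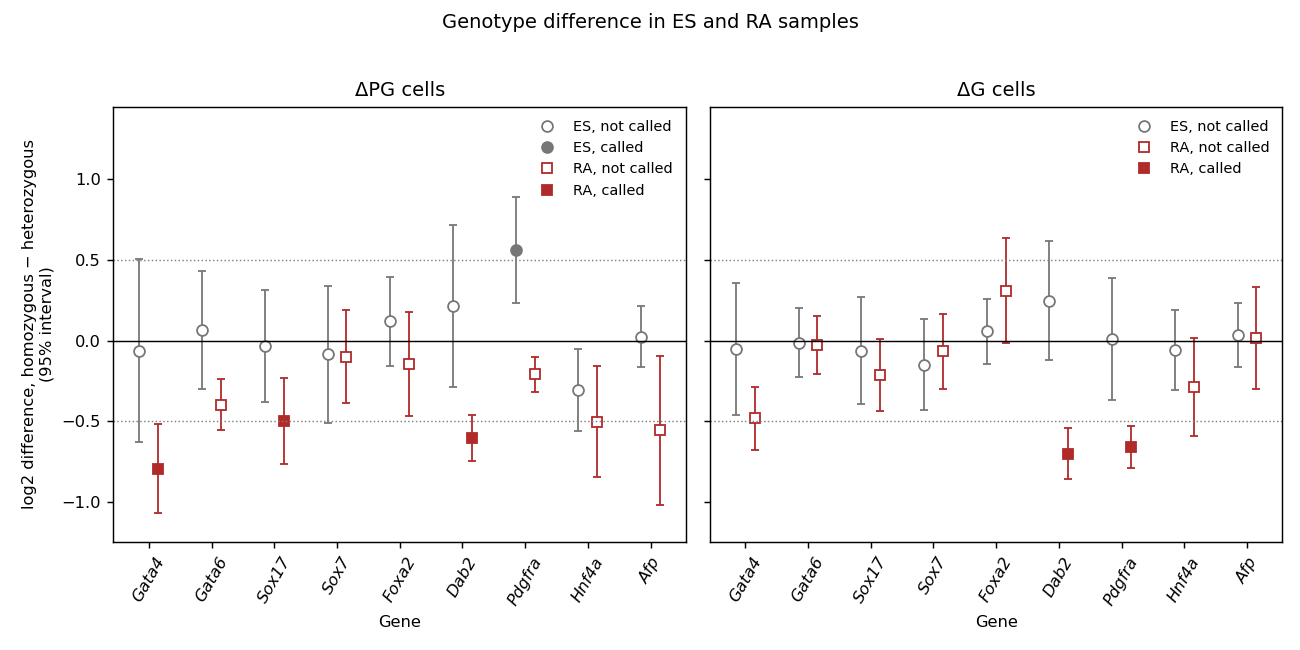
Log2 difference (homozygous minus heterozygous, y axis) of the 9 genes in ES (grey circles) and RA (red squares) samples of ΔPG and ΔG, with 95% intervals from limma (n = 3 per group); filled symbols passed both limits and dotted lines mark 0.5 and -0.5. In RA, Gata4 is at -0.80 and Dab2 at -0.60 in ΔPG, and Dab2 is at -0.70 and Pdgfra at -0.66 in ΔG.

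A few other endoderm genes also differed between the genotypes after RA. Among the endoderm genes listed, Cubn had the largest difference in both tables, at -1.24 in ΔPG (9.68, 9.69 and 9.67 in heterozygous against 8.36, 8.48 and 8.48 in homozygous samples) and -1.15 in ΔG (10.13, 10.19 and 10.22 against 9.04, 9.01 and 9.05). Srgn, the secretory granule proteoglycan serglycin and a parietal endoderm gene, fell by 0.94 in ΔPG and 1.00 in ΔG. The other called genes of these lists were Ttr (-0.94), Dkk1 (-0.58) and Fst (-0.90), called in ΔPG and not in ΔG. In ΔG the differences were 0.31 for Ttr, -0.19 for Dkk1 and 0.18 for Fst, and the difference between the deletions was not tested. In all, 3 of 23 primitive and visceral endoderm genes and 2 of 13 parietal endoderm genes fell in ΔPG, and 1 of 24 and 1 of 13 in ΔG, with none higher. Of all tested genes, 0.605% in ΔPG and 1.46% in ΔG were called lower. Among genes with a mean rlog of at least 3, 131 of 11904 in ΔPG and 240 of 11997 in ΔG were. The list counts are small and are descriptions.

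**Figure D4:**
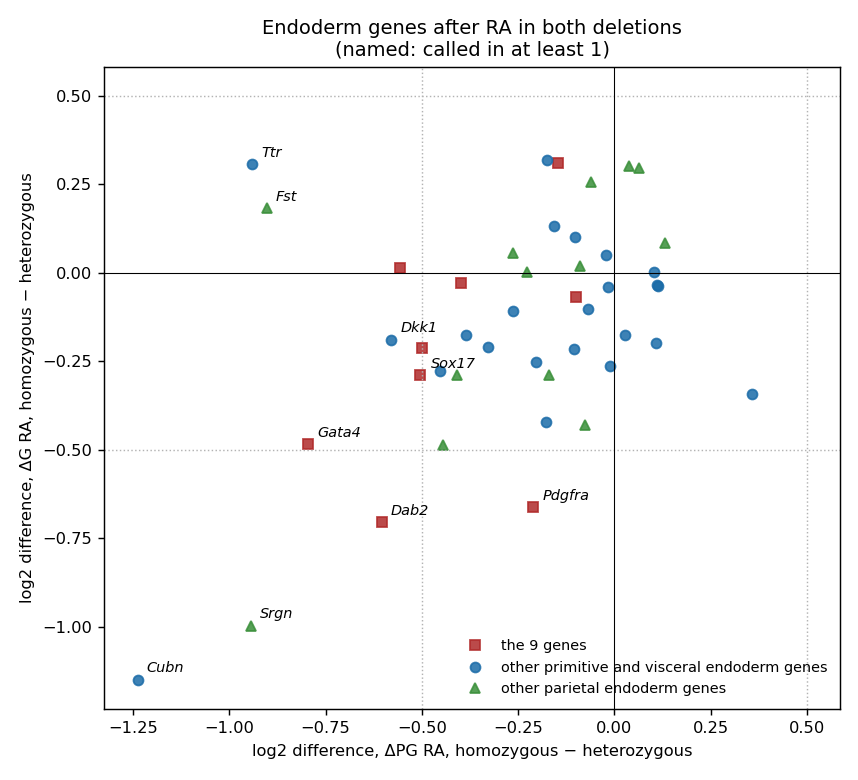
Log2 difference (homozygous minus heterozygous) after RA in ΔPG (x axis) and ΔG (y axis) for the 9 genes (red squares) and the other primitive and visceral (blue circles) and parietal (green triangles) endoderm genes; named genes were called in at least 1 table. Cubn, Srgn, Dab2 and Gata4 lie below -0.4 in both tables, while Ttr and Fst are below -0.9 in ΔPG and above 0 in ΔG.

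Some markers of other cells also differed between the genotypes after RA. Of all tested genes, 53 of 21979 in ΔPG and 149 of 22048 in ΔG were called higher, and 133 and 322 lower. Among genes with a mean rlog of at least 3, 58 of 11904 in ΔPG and 123 of 11997 in ΔG were called higher. There, 131 and 240 were called lower. Of 7 fibroblast genes, 2 fell in ΔPG and 1 in ΔG, not the same ones, and the median difference of the list was -0.0068 in ΔPG and -0.17 in ΔG. Acta2 fell by 1.16 and Col3a1 by 0.67 in ΔPG, with differences of -0.036 and -0.034 in ΔG, and Col1a2 fell by 1.41 in ΔG, with a difference of 0.23 in ΔPG that was under the size limit. The summed level of this list was 10.22 to 10.25 in RA heterozygous and 9.61 to 9.68 in RA homozygous samples of ΔPG, and 9.93 to 10.0 and 9.29 to 9.37 in ΔG, and no gene of the list was at 0 in every sample. The sum follows the highest genes rather than the list as a whole. In ΔPG the highest was Acta2, with means of 9.25 in RA heterozygous and 8.09 in RA homozygous samples. In ΔG the trophoblast genes Hand1 and Krt7 were higher by 0.81 and 0.77, the neural gene Tubb3 by 0.99 and the mesoderm gene Kdr by 0.57. In ΔPG none of these was called, and the differences were -0.30 for Hand1, -0.31 for Krt7, -0.49 for Tubb3 and 0.14 for Kdr. The RA response genes as a list did not go one way, with a median difference of 0.073 in ΔPG and -0.027 in ΔG. Hoxb1 was higher by 0.57 in ΔPG (0.14 in ΔG, not called) and Cdx1 by 0.91 in ΔG (0.31 in ΔPG, not called). Pluripotency genes had a summed level of 9.57 to 9.63 in heterozygous and 9.54 to 9.64 in homozygous RA samples of ΔPG, and of 9.50 to 9.60 and 9.40 to 9.61 in ΔG, and Klf4 fell by 0.61 in ΔPG, with a difference of -0.24 in ΔG that was not called. The part of these cells in the genotype differences of the members was not tested.

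In the ES state, with solvent in place of RA, all members except Hnf4a were lower than after RA. The members differed little between genotypes. In ΔPG, Pdgfra was higher in homozygous samples by 0.56 (SE 0.14, adjusted p = 0.017, limma), at a background of 13.2% of all tested genes called and 6.87% called higher. Of the 11904 genes with a mean rlog of at least 3, 2784 were called, 1446 of them higher. With the GC trend removed its difference was 0.50 (0.498) and fell just inside the size limit, and the call was also lost without replicate 3 of the homozygous samples (0.47) or replicate 3 of the heterozygous samples (0.49). Hnf4a differed by -0.31 (adjusted p = 0.07, limma), and by -0.04 with the GC trend removed. The other 7 members differed by -0.09 to 0.21. With the trend removed, Gata6 was at 0.43 (adjusted p = 0.0289, limma) and Foxa2 at 0.49 (0.0107), both under the size limit. In ΔG no member was called, at a background of 0.984%, and the differences ran from -0.15 (Sox7) to 0.25 (Dab2). In limma, 0 of the 9 members of ΔG reached an unadjusted p under 0.05 in this state. The 95% interval of Dab2 in ΔG was -0.12 to 0.62.

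Whether the RA difference itself depended on genotype was asked with an interaction term, fitted to all 12 samples per table. The rise was smaller in homozygous cells for Gata4, Dab2 and Pdgfra in ΔPG and for Dab2 and Pdgfra in ΔG. In ΔPG the interaction was -0.73 (SE 0.29, adjusted p = 0.0877, limma) for Gata4, -0.82 (SE 0.23, adjusted p = 0.0175) for Dab2 and -0.77 (SE 0.15, adjusted p = 0.0012) for Pdgfra. In ΔG it was -0.95 (SE 0.17, adjusted p = 0.0013) for Dab2 and -0.67 (SE 0.16, adjusted p = 0.0147) for Pdgfra. For Pdgfra in ΔPG, the genotypes differed by 0.56 in ES and by -0.21 in RA samples, the latter not called. Its ΔPG interaction thus rested largely on the ES samples. In ΔG the differences of Pdgfra were 0.01 in ES and -0.66 in RA samples. The share of all tested genes with a called interaction was 13.9% in ΔPG (7.19% lower) and 2.38% in ΔG (1.18% lower). Genes with a mean rlog of at least 3 were called more often, with 2976 of 11904 in ΔPG (1520 lower) and 539 of 11997 in ΔG (253 lower). All 9 interactions were below 0 in ΔPG, and 7 of 9 in ΔG, where Foxa2 (0.25) and Sox7 (0.08) were above 0 without passing. The median interaction of all tested genes was 0.0056 in ΔPG and -0.010 in ΔG. The members shared the same libraries and most of them moved together, so their signs are not separate observations. With the GC trend removed, the ΔPG interactions were -1.12 for Gata4, -0.82 for Gata6, -0.70 for Pdgfra, -0.63 for Foxa2, -0.53 for Sox17 and -0.52 for Dab2, and these 6 passed, at a background of 9.43% of 11904 genes. Without the correction Gata6 and Sox17 were both at -0.46 and Foxa2 at -0.27. Gata4 in ΔPG lost its call when any of 8 single samples was left out, with interactions from -0.78 to -0.47, and with no variance trend.

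The deposited 4C-seq regions, which list chromatin in contact with the 5430416N02Rik promoter in unmodified ESCs in 2 replicates, were read at the member genes. Their build is given as NCBI37/mm9 in the methods, but 9 of 680 regions ran past a chromosome end of NCBIM37, so gene positions of both GRCm38 and NCBIM37 were tried. No GRCm38 genome was used here to check the regions against, and the build was not settled. Gata4 and Sox7, neighbours on chromosome 14, lay wholly inside regions of both replicates with either set of positions. Another member overlapped such a region, Afp with GRCm38 and Pdgfra with NCBIM37 positions, so the contact of these genes depends on the build. These 3 of 9 members stand beside 38.4% of 21900 protein-coding genes with GRCm38 and 36.6% of 22380 with NCBIM37 positions.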

How the data were processed

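Expression tables covering 24 RNA-seq samples were used, with the 4C-seq regions found in each of 2 replicates. Ribosome-depleted, stranded libraries were sequenced by the authors, aligned to NCBI37/mm9 with TopHat2 2.1.0, freed of duplicates with Picard and counted per gene symbol by strand with HTSeq 0.6.0 and GENCODE gene models. The deposited values are rlog values on the log2 scale, made by the authors with DESeq2 1.14.1, in 1 table per deletion with 33924 genes, of which 21979 (ΔPG) and 22048 (ΔG) varied. Since counts cannot be had from them, depth is unknown and counting error is not stated. Of each 4C-seq region, called by the authors per replicate, only the start and end were deposited.

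Genes that varied were fitted with limma 3.58.1 (lmFit, eBayes with a variance trend) in R 4.3.3, on the 6 samples of a comparison or, for the interaction, the 12 samples of a table. P-values were adjusted by Benjamini-Hochberg over all genes tested. Calls needed p under 0.1 after this adjustment and a log2 difference larger than 0.5 in size. For the GC correction, values were centred per gene, and the lowess curve (span 0.3) of a library's centred values on exonic GC content (GENCODE vM1, NCBIM37) was subtracted, using genes whose mean rlog was 3 or more. Python 3.11.15, numpy 2.4.6 and pandas 2.3.3 were used for the rest. The fits and the correction were also run on simulated data with independent noise per gene, and the outcome is not used here.

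The members, the gene lists and the tests were chosen with earlier results of these data known. The genes named are the 9 members, the deleted gene, at most 3 called genes with the largest difference per list and comparison, whose values in the other lines are also given, the 3 genes most like each member, and others named as chosen later. Rhox5, Tfcp2l1, Sox1, Tfap2c and Foxf1 were not analysed here, and Fga and Neurog1 (ΔPG), Mesp1 (ΔG) and Tat (both) were listed at 0. No protein sequence was used. RIP-seq and Capture-C data were not analysed here.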

Additional observations from a re-analysis of the deposited data

Results flagged for a closer look

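The RA differences of 3 members depended on genotype by the test of the interaction (limma, 12 samples per table), with smaller rises in homozygous cells. Of all tested genes, 13.9% in ΔPG and 2.38% in ΔG had a called interaction. Among genes with a mean rlog of at least 3, 2976 of 11904 in ΔPG and 539 of 11997 in ΔG had one. The calls of members are thus not particular to them. The interaction of Gata4 in ΔPG was -0.73, that of Dab2 was -0.82 in ΔPG and -0.95 in ΔG, and that of Pdgfra was -0.77 in ΔPG and -0.67 in ΔG. For Pdgfra in ΔPG, the genotypes differed by 0.56 in ES and by -0.21 in RA samples, the latter not called. For Dab2 and Pdgfra the call held in every alternative tried, for Gata4 it did not. In ΔPG the ES heterozygous libraries that enter these values are those with the strongest GC trend. With the trend removed the interactions were -1.12 for Gata4, -0.52 for Dab2 and -0.70 for Pdgfra. The clones behind the samples are not given in the sources used here, and the part of the clone in these differences was not tested.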

How the results depend on the processing

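Alternatives were other limits (adjusted p under 0.05 and fold over 1.5), a minimum mean rlog of 3, all 12 samples in 1 fit, quantile normalization, no variance trend, a replicate block, the GC trend removed with and without the block, and each sample left out. They gave 1320 values for the members, of which 1213 kept direction and side of the limits, 29 lost and 31 gained a call and 47 turned sign. No called value turned sign, and 40 of 44 called values held in every alternative run for them; the exceptions were Afp (RA, ΔPG homozygous), Pdgfra (ΔPG ES), Sox17 (ΔPG RA) and Gata4 (ΔPG interaction). The cause was not tested. Afp had no value under the mean or GC setting, since its mean rlog is below the minimum.

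In ΔPG ES, the 1 call became 0 under the stricter limits and with the GC trend removed, with or without the block, and 0 to 1 when a sample was left out. In ΔPG RA, the 3 genotype calls became 5 with all 12 samples in 1 fit. The 3 ΔPG interaction calls became 5 after quantile normalization and 6 with the GC trend removed, with or without the block. Quantile normalization moved the calls higher and lower after RA from 3634 and 2482 to 2864 and 2960 in ΔPG homozygous, from 3911 and 2588 to 3042 and 3304 in ΔG heterozygous, and from 3759 and 2675 to 2941 and 3305 in ΔG homozygous cells. Of all genes, the genotype calls in ΔPG ES were 2893 and became 865 with the GC trend removed, and those of the ΔPG interaction 3056 and 1122. With the stricter limits the genotype calls went from 186 to 127 in ΔPG RA, from 471 to 275 in ΔG RA and from 217 to 117 in ΔG ES, and the ΔG interaction calls from 524 to 268. The members in shared 4C regions were 3, and 7 with regions of either replicate; the NCBIM37 positions, also 3, were added after seeing the data.

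The replicate numbers did not pair the samples: over 24 pairs of samples with the same number the correlation of deviations was -0.03 to 0.09, and in 9 of these pairs it was the highest of the 3 numbers. With the replicate block, 2 members instead of 3 were called in ΔPG RA, 4 instead of 3 in the ΔPG interaction, and 44 genes instead of 217 in ΔG ES and 112 instead of 186 in ΔPG RA.

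Values not called turned sign as follows. In ΔPG ES with the GC trend removed, with or without the block, Gata4 was at 0.33, Sox17 at 0.035, Sox7 at 0.032 and Dab2 at -0.089. Gata6 in ΔG ES was at 0.023 after quantile normalization. With a sample left out, the ranges in ΔPG ES were -0.33 to 0.14 (Gata4), -0.13 to 0.075 (Sox17), -0.077 to 0.19 (Gata6), -0.042 to 0.36 (Dab2), -0.0051 to 0.039 (Afp) and -0.18 to 0.10 (Sox7). In ΔG ES they were -0.19 to 0.12 (Gata4), -0.055 to 0.019 (Gata6), -0.21 to 0.024 (Sox17), -0.15 to 0.14 (Pdgfra), -0.021 to 0.072 (Afp) and -0.11 to 0.011 (Hnf4a). In ΔG RA they were -0.047 to 0.12 (Afp) and -0.085 to 0.055 (Gata6). For the interaction they were -0.20 to 0.082 (Sox7) in ΔPG, and -0.071 to 0.069 (Gata6), -0.081 to 0.083 (Afp) and -0.0061 to 0.18 (Sox7) in ΔG.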
